A study of Rattus norvegicus with 3 samples.

Results

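Cd36, Folr1, Gstm1 and Ephx2 are rat genes for which allelic variants have been reported in the spontaneously hypertensive rat (SHR), an inbred strain that develops high blood pressure, or in its stroke-prone derivative. They were found by gene symbol, former symbol and RefSeq accession among 5654 genes on a spotted oligonucleotide array read in 2 colours. Each of the 4 genes had 1 probe on 2 spots, which made 8 of the 11394 gene spots. The labels describe liver RNA of male SHR rats of 1 month and 3 months and a pool of liver RNA from Wistar Kyoto (WKY) rats, the normotensive comparison strain, without treatment or engineered alleles. The strain arrays, 1 for each age, paired SHR liver with pooled WKY liver of the same age. The SHR age array paired the younger with the older SHR liver. The number of animals behind each RNA, the SHR colony, and the genotype of the animals at these 4 genes are not given in the sources used here. There was 1 array per comparison and no dye swap, so every value below is a description of that array, with the SD between the 2 spots of a probe as its only error and with no p-value. That SD is technical, and the spread between animals is unknown.

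The 4 proteins have separate jobs. Cd36 is a membrane glycoprotein that takes up long-chain fatty acids and binds oxidised lipoproteins, and defective Cd36 has been described in certain SHR colonies but not in the original Japanese ones. Folr1, folate receptor alpha, is a membrane-anchored protein that binds folate with high affinity and carries it into epithelial cells, chiefly in the proximal tubule of the kidney, and a promoter variant has been reported in SHR. Gstm1 is a mu-class glutathione transferase, a cytosolic enzyme that conjugates glutathione to electrophiles, and low renal expression with promoter variants has been reported in the stroke-prone strain. Ephx2, soluble epoxide hydrolase, turns the vasodilating epoxyeicosatrienoic acids into less active diols, and variant alleles have been reported in SHR.

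The probe that stands for Gstm1 carried conflicting names. Its accession, NM_017014, is Gstm1 in the RefSeq table, while the deposited files name it Gstm2, of mu type Yb2. The oligonucleotide sequences were not used here, so which of the mu-class transcripts the spot binds was not tested, and it is called the NM_017014 probe below. The sequences of the 250 bases before the transcription start of both candidate genes are shown because reported Gstm1 variants lie in the promoter and because the probe's 2 names stand for different genes, near each other on chromosome 2, with different sequence upstream. They are from RefSeq (GRCr8, reverse strand, written 5′ to 3′), with motif matches in capitals. The Gstm1 window is chr2:198343384-198343633 and the Gstm2 window chr2:198316918-198317167. Each precedes the start that RefSeq's promoter table uses. The Gstm1 window lies inside the span annotated for the gene and the Gstm2 window partly so, and other starts of these genes are not shown.
Gstm1: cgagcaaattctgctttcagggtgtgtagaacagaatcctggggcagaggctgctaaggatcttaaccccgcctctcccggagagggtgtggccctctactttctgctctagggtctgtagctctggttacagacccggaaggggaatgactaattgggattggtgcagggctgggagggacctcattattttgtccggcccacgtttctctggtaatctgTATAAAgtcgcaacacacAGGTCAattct
Gstm2: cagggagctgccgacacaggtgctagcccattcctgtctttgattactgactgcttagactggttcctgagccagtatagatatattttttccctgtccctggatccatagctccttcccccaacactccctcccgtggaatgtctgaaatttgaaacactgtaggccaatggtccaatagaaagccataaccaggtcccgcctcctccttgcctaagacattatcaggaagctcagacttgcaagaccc
Matches to 3 motifs were sought on both strands. The TATA box was searched as TATAAA, and the Gstm1 window holds it at 29 to 24 bases before the start. Over 33469 rat promoters of this length 12.9% held it. The nuclear receptor half-site was searched as AGGTCA, and the Gstm1 window holds it at 11 to 6 bases before the start, without overlap with the first. It was held by 14.1% of the promoters. The antioxidant response element core was searched as TGACNNNGC, which neither window holds and which 10.1% of the promoters held. The Gstm2 window holds none of the motifs. These are the reference sequences, and the arrays carry no information on the alleles of these rats. Of the 4 members, 3 were named by the files' own symbol. Probes whose file symbol is Fat or Fbp1, former names of Cd36 and Folr1, belong by accession to the genes Fat1 and Fbp1 and were left out.

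The arrays as a whole bear on how these genes can be read. Log2 ratios give the second file column over the first, which is SHR over WKY on both strain arrays. SHR carried the same dye on both, so a probe's own dye effect cannot be told apart from a strain difference. A like sign on several arrays does not separate them. Background was corrected with normexp and ratios were then normalized by loess, which moved the median log2 ratio from -0.51, -0.36 and -0.65 to -0.01 on each array, so each ratio is relative to genes of like intensity. The direction of the SHR age array is not settled. The file headers make it 3 months over 1 month, but the labels put on SHR of 1 month the dye that SHR carried on the strain arrays. It is given as the headers have it, and all its signs turn otherwise. On the 3-month strain array 459 spots, none of a member, lay in bright local background, against 18 and 0 on the other 2 arrays. There the corrected intensity of empty spots outside that patch was 417 and 481 in the first and second channel. Raw intensity minus background of the same spots was 7.11 and 3.804, which pulls the 3-month ratios of dim probes towards 0. The 3-month values of the dim probes Cd36 and Folr1 are therefore given also from a correction without those spots. Probe brightness was no higher for hepatocyte markers than for other genes. Of 14 measured hepatocyte markers, 6, 7 and 7 were brighter than the median gene on the 3 arrays, while all 4 measured adipocyte markers and 3 of 4 muscle markers were brighter on each. Of 7 kidney markers, 2 were brighter on each. The members' intensities are accordingly given against empty spots of the same array and not ranked against each other, and whether each probe reads the gene it is named for was not tested.

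All 4 probes were above background, defined as 2 SD over the local background, in both channels of all 3 arrays. Cd36 is given first. On the 1-month array its 2 spots read 764 and 703 for WKY and 464 and 399.6 for SHR in raw intensity. At 3 months they read 586 and 592 for WKY and 260.0 and 263 for SHR. On the SHR age array they read 497 and 527 in the 1-month column and 239 and 250.3 in the 3-month column. These raw values are lower in the second column on every array, as was the median gene. In the SHR channel Cd36 was 8.29 times the median empty spot at 1 month and 5.06 times at 3 months, with 4.78% and 6.49% of empty spots brighter.

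Folr1 read 525 and 617 for WKY and 227 and 239 for SHR at 1 month. At 3 months it read 420.3 and 495 for WKY and 156 and 167 for SHR. On the SHR age array it read 373 and 391 in the 1-month column and 162 and 169 in the 3-month column. Folr1 was thus near the floor, its SHR channel being 4.47 and 3.13 times the median empty spot on the strain arrays. Of empty spots, 6.38% and 8.46% were brighter.

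The NM_017014 probe read 2620.4 and 2542 for WKY and 1568 and 1463 for SHR at 1 month. At 3 months it read 2216 and 2188 for WKY and 1260.1 and 1200.4 for SHR. On the SHR age array it read 1649 and 1817 in the 1-month column and 672 and 692 in the 3-month column. The second column was the lower on each array, as for the median gene. Its second channel was 29.1, 23.8 and 13.6 times the median empty spot on the 3 arrays.

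Ephx2 read 1234 and 1381 for WKY and 667 and 897 for SHR at 1 month. At 3 months it read 1699 and 1653 for WKY and 1064 and 1055 for SHR. On the SHR age array it read 1436 and 1377 in the 1-month column and 779 and 743 in the 3-month column. The 1-month SHR spots were the pair of Ephx2 that differed most, followed by the 1-month WKY spots. Its second channel was 15.01, 20.5 and 15.2 times the median empty spot.

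**Figure D1:**
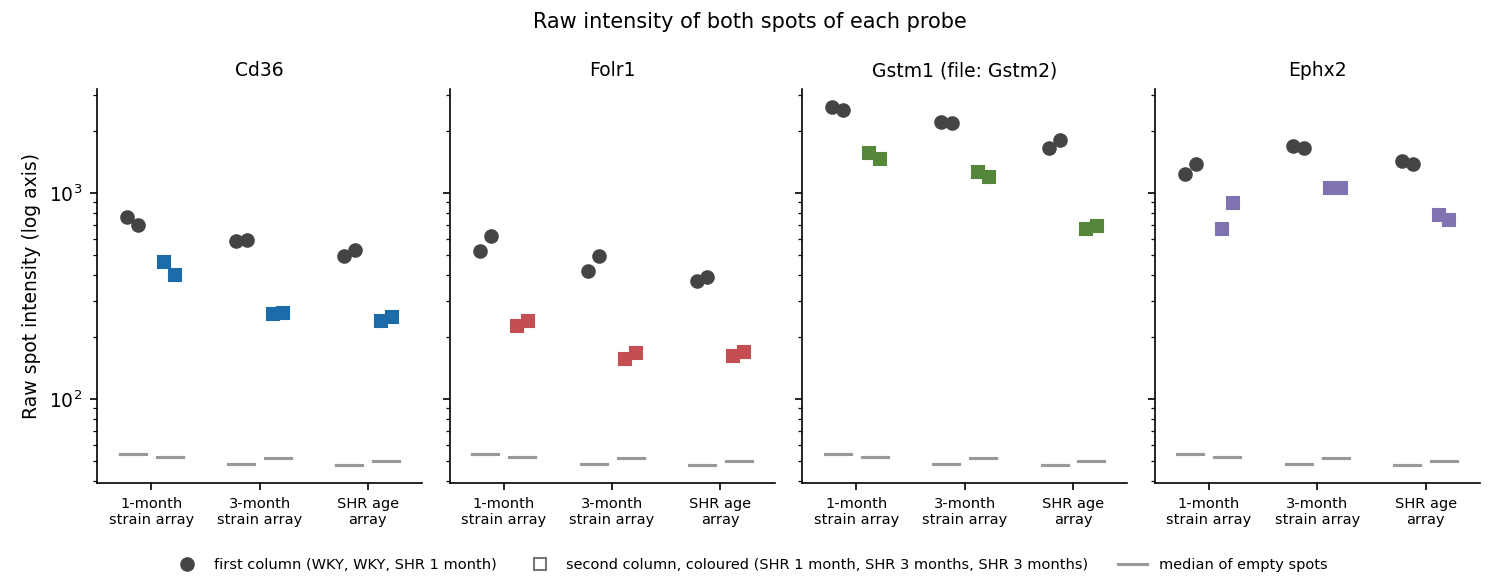
Raw intensity (log axis) of both spots of each probe on the 3 arrays, with circles for the first file column, squares for the second and grey bars for the median empty spot. Every spot lies above the median empty spot, Folr1 in SHR by 4.47 and 3.13 times on the strain arrays, and heights may not be compared between panels because probes differ in brightness.

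None of the 4 genes had a measured ratio of 1.5-fold, 0.585 on the log2 scale, between SHR and WKY liver at either age. Over all genes the share that did was 2.62% at 1 month (148 of 5648, 11 higher and 137 lower in SHR) and 2.08% at 3 months (117 of 5615, 33 higher and 84 lower). With median centring in place of loess the counts were 595 higher and 417 lower at 1 month and 434 higher and 132 lower at 3 months, so the balance of directions depends on the normalization. With shares this small, 0 of 4 is near the background and says nothing particular of these genes.

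Cd36 had spot log2 ratios of 0.13 and 0.07 at 1 month, a mean of 0.10 ± 0.05 (SD, 2 spots), or 1.07-fold. At 3 months both spots had -0.11, a 1.08-fold lower reading in SHR. Without the bright background the 3-month ratio was -0.20. Of all genes, 59.7% lay at least as far from 0 at 1 month and 54.5% at 3 months, so Cd36 sat in the middle of the array both times. A large fall of Cd36 in SHR was not seen with this probe, and whether the probe reads Cd36 was not tested. With median centring the 1-month ratio was -0.25.

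Folr1 read lower in the SHR channel of both strain arrays. These arrays had the same dye layout, so a dye effect of this probe cannot be told apart from a strain difference. The Folr1 spots had log2 ratios of -0.25 and -0.42 at 1 month, a mean of -0.33 ± 0.12 (SD, 2 spots) or 1.26-fold. At 3 months they had -0.18 and -0.24, a mean of -0.21 ± 0.05 or 1.16-fold. Without the bright background the 3-month spots had -0.39 and -0.51, a mean of -0.45. Of all genes, 11.7% lay at least as far from 0 as -0.33 at 1 month and 29.6% as far as -0.21 at 3 months. Of the 500 genes of most similar intensity the shares were 19% and 13%. They were not computed for the value without the bright background. Median centring gave -0.76 at 1 month and -0.07 at 3 months.

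The NM_017014 probe had spot log2 ratios of -0.12 and -0.17 at 1 month, a mean of -0.14 ± 0.03 (SD, 2 spots) or 1.10-fold. At 3 months they were -0.08 and -0.11, a mean of -0.10 ± 0.03 or 1.07-fold. All 4 spots were below 0, yet 45.1% and 60.4% of all genes lay at least as far from 0. The probe thus read a little lower in the SHR channel at both ages, by less than most genes of the array varied at 3 months.

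Ephx2 had spot log2 ratios of -0.12 and 0.10 at 1 month, which fall on either side of 0, with a mean of -0.01 ± 0.16 (SD, 2 spots). At 3 months the spots were at 0.05 and 0.08, a mean of 0.07 ± 0.02 or 1.05-fold higher in SHR. Of all genes, 94.9% and 74.1% lay at least as far from 0. Neither age showed an Ephx2 difference beyond what 2 spots of one probe can differ by at 1 month.

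**Figure D2:**
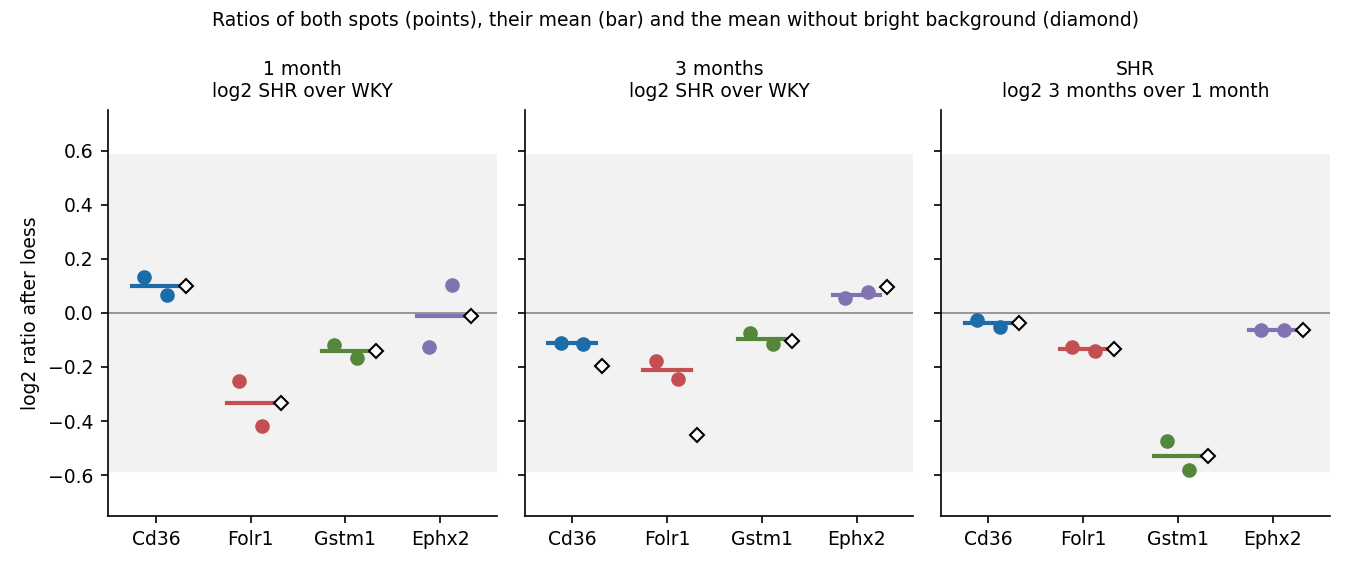
Log2 ratio after loess of both spots (points) of each gene on the 3 arrays, with their mean (bar) and the mean from a correction without bright background (diamond). The grey band marks less than 1.5-fold, every mean lies within it, and the diamonds depart most from the bars for Folr1 (-0.45 against -0.21) and Cd36 (-0.20 against -0.11) at 3 months.

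**Figure D3:**
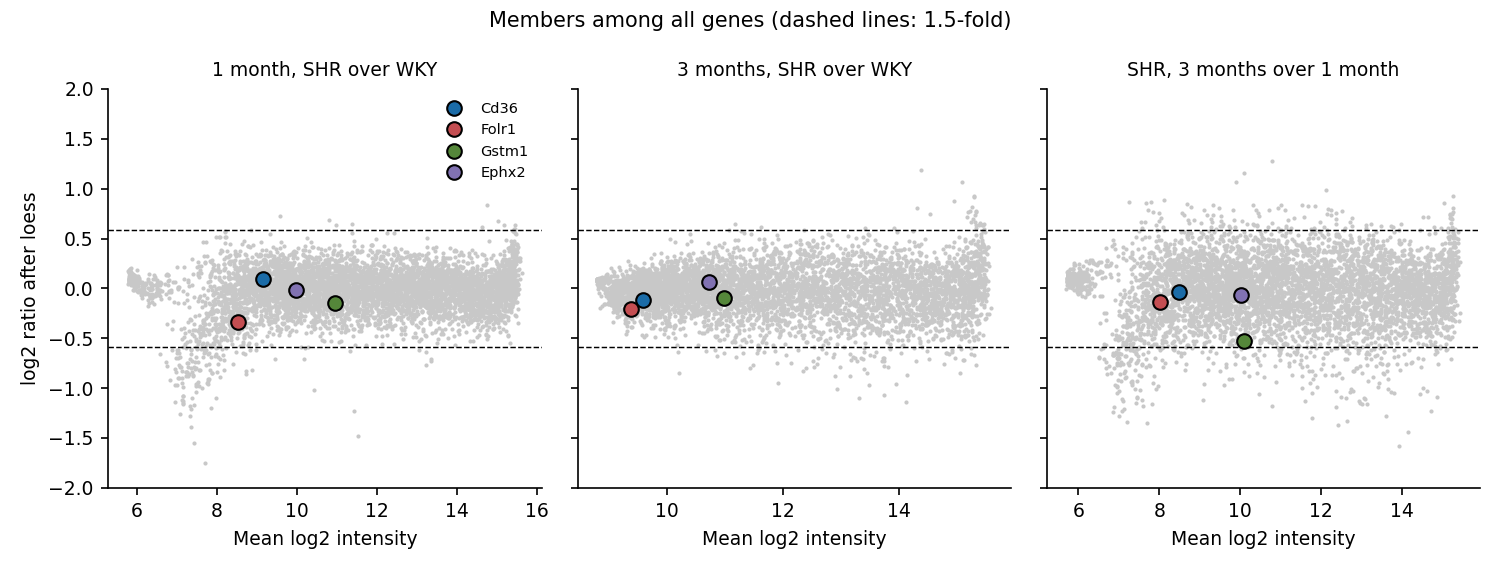
Log2 ratio after loess against mean log2 intensity for all genes (grey) with the 4 members in colour and dashed lines at 1.5-fold. The members lie inside the grey cloud on the strain arrays, and Gstm1, read by the NM_017014 probe, lies near the lower line on the SHR age array at -0.53.

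On the SHR age array the NM_017014 probe stood apart from the other members. Its spots had log2 ratios of -0.47 and -0.58, a mean of -0.53 ± 0.08 (SD, 2 spots) or 1.44-fold, lower in the column headed 3 months. Of all genes 9.88% lay at least as far from 0, and 7.20% of the 500 of like intensity did. The ratio was under 1.5-fold, which 7.47% of genes reached on this array (422 of 5650, 117 higher and 305 lower). With median centring those counts were 876 higher and 567 lower. It did pass 1.5-fold under 4 of 12 alternatives, among them the authors' log2 values (-0.65) and loess within each printed subgrid (-0.61). The presence filters and the correction without bright background are among the 12 and could not move this value. Folr1 had -0.13 ± 0.01, Ephx2 -0.06 ± 0.00045 and Cd36 -0.04 ± 0.02 on the same array, and 63.9%, 82.9% and 89.3% of genes lay at least as far from 0. If the labels' dyes rather than the headers give the direction, the NM_017014 value is 0.53, higher at 3 months.

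The change of the strain ratio between ages is the 3-month minus the 1-month log2 ratio. It was -0.21 for Cd36 (-0.30 without the bright background, 0.16 with median centring) and 0.13 for Folr1 (-0.12 without the bright background, 0.69 with median centring). It was 0.05 for the NM_017014 probe and 0.08 for Ephx2. None reached 1.5-fold as processed here, and that of Folr1 did with median centring. Over all genes 2.83% of 5610 reached it (96 higher at 3 months and 63 lower), or 415 higher and 176 lower with median centring. For Folr1 both the sign and the size thus depend on the background correction and the normalization. The small changes of the other 2 also turned sign, in 3 of 12 alternatives for the NM_017014 probe (lowest -0.01) and in 4 for Ephx2 (lowest -0.08). A ratio for WKY of 3 months over 1 month can be computed from the 3 arrays on the assumption that a single SHR RNA per age served them, which is not stated. For the NM_017014 probe it was -0.58 as the headers run and 0.48 with the age array turned. It shares its arrays with the SHR value and is no independent measurement.

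Genes with the most similar 3 ratios were sought by Euclidean distance among the 4265 named genes detected in both channels of each array. For Cd36 they were Cebpe, Sfmbt1 and Prkab2, and 83 genes lay within 0.1. For Folr1 they were Folh1, an enzyme that trims folate polyglutamates, Scamp2 and Tle4, and 26 genes lay within 0.1. For the NM_017014 probe they were Rab11b, Uts2r and Apba2, with 15 within that distance. For Ephx2 they included Tmem150a and Dpyd, with 150 within it. With 3 numbers from 3 arrays per gene, sharing SHR samples, a close match is common and is only a description.

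Each gene was then set in its pathway. In fatty acid uptake and activation, 26 of 29 listed genes were measured and none was 1.5-fold apart between strains. That is near the shares over all genes, 2.62% at 1 month and 2.08% at 3 months. The list's median log2 ratios were 0.04 at 1 month and 0.05 at 3 months, beside -0.01 for all genes at both ages. The highest at 1 month was Acsl5, which activates long-chain fatty acids (0.35), and the lowest Slc27a1, a fatty acid transport protein (-0.31). At 3 months the extremes were Fabp5, a fatty acid binding protein, at 0.35, and Scarb1, the high-density lipoprotein receptor and a relative of Cd36, at -0.25. On the age array Acsl5 was at 0.68, the 1 gene of the list past 1.5-fold, and Acsl3 lowest at -0.24. Adipocyte markers, which would mark fat tissue rich in Cd36, had medians of 0.03, -0.04 and -0.28 over 4 measured genes. Their part in the Cd36 values was not tested.

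In folate uptake and one-carbon metabolism, 21 of 35 genes were measured, with medians of 0.03 and -0.04 on the strain arrays. Folr1 was the lowest of them at 1 month. At 3 months the lowest was Slc19a1, the reduced folate carrier and another cellular route for folate, at -0.50, and it had -0.28 at 1 month. Aldh1l1, the liver enzyme that oxidises formyl-tetrahydrofolate, was highest on all arrays, at 0.55, 1.06 and 0.86, past 1.5-fold at 3 months and on the age array. Pemt, which makes phosphatidylcholine by methylation, was lowest on the age array at -0.67. The median there was -0.04. Kidney markers, which would mark the tissue richest in Folr1, had medians of 0.05, 0.09 and 0.00 over 7 genes.

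Among glutathione transferases and glutathione synthesis genes, 22 of 35 were measured, and none was 1.5-fold apart between strains. That again is near the 2.62% and 2.08% of all genes. The list's medians were -0.01 and -0.03 on the strain arrays and -0.03 on the age array. Other mu-class probes were not uniform. Gstm7 (file symbol Gstm3) had -0.26 and -0.25 on the strain arrays and -0.42 on the age array, below 0 on all 3 like the NM_017014 probe. Gstm3 (file symbol GstYb4) had 0.00, -0.21 and 0.10, and Gstm5 0.02, 0.14 and 0.07. Mu-class genes are close copies, so cross-hybridisation between them cannot be told apart from expression here. On the age array the alpha-class Gsta2 was lowest at -0.55, just beyond the NM_017014 probe, and the theta-class Gstt1 highest at 0.64. On the strain arrays the extremes were Gstt1 (0.20) and Gss, glutathione synthetase (-0.43), at 1 month. At 3 months they were the glutathione peroxidases Gpx1 (0.20) and Gpx3 (-0.32).

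In epoxyeicosanoid and arachidonic acid metabolism, 24 of 36 genes were measured, with medians of -0.06, -0.04 and -0.04. Cyp2c7, a cytochrome P450 of the arachidonic acid epoxygenase subfamily, was lowest on every array, at -0.71, -0.61 and -0.76, and was the 1 gene past 1.5-fold on each. With no dye swap, a dye effect of its probe cannot be told apart here, nor for Aldh1l1 above. The highest were Alox5ap, the 5-lipoxygenase activating protein, at 1 month (0.19), Por, the P450 reductase, at 3 months (0.24) and Alox5, 5-lipoxygenase, on the age array (0.37). Ephx1, the microsomal epoxide hydrolase, had -0.18, -0.17 and -0.30, all below the values of Ephx2.

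**Figure D4:**
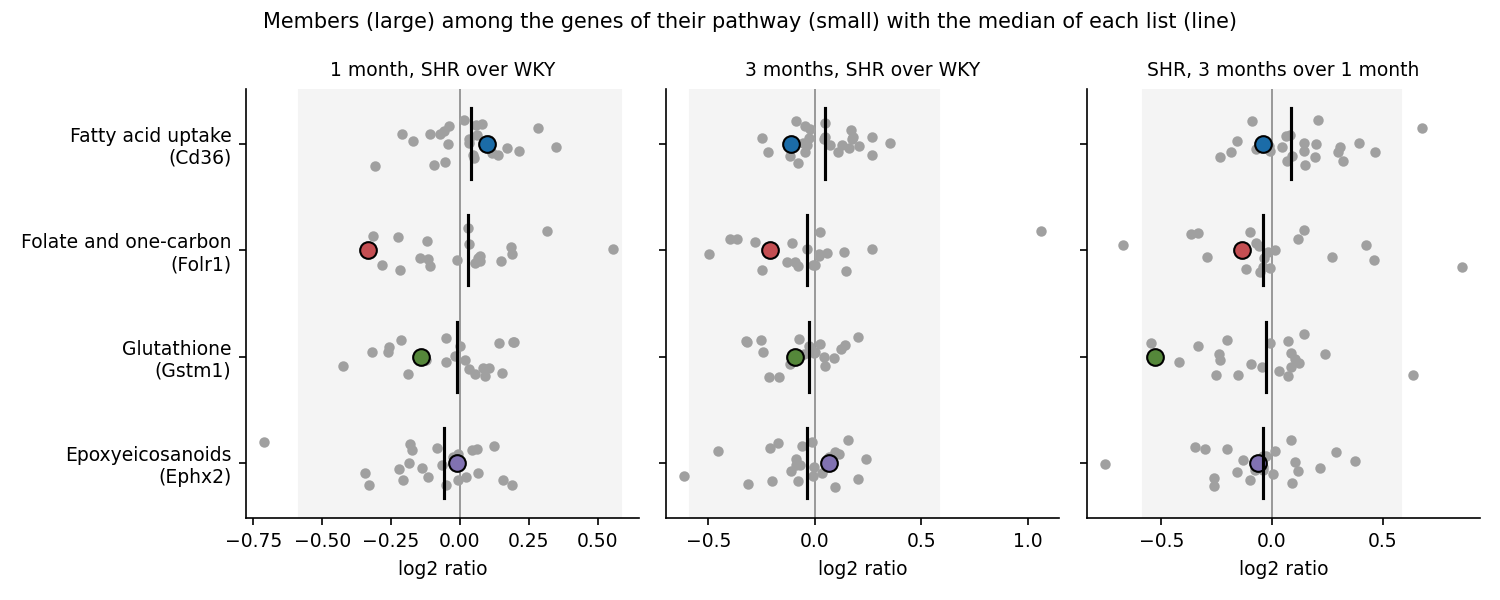
Log2 ratios on the 3 arrays of the measured genes of each member's pathway (small points), the member (large point) and the list's median (line), with a grey band for less than 1.5-fold. Folr1 is the lowest of its list at 1 month (-0.33), and Gstm1, read by the NM_017014 probe, lies next to the lowest of its list, Gsta2 (-0.55), on the age array (-0.53).

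Of 24 other genes with alleles reported in SHR or its stroke-prone derivative, 15 were measured and none was 1.5-fold apart between strains. Over all genes 2.62% were at 1 month and 2.08% at 3 months, so none of 15 is near the background. The medians of the 15 genes were -0.02 at 1 month, 0.05 at 3 months and -0.13 on the age array. The extremes were Ahr (0.20) and Add1 (-0.35) at 1 month, Nppa (0.32) and Add2 (-0.49) at 3 months, and Cyp11b1 (0.36) and Add3 (-0.71) on the age array. The adducins Add1, Add2 and Add3 are membrane skeleton proteins that bear on renal sodium transport, and Cyp11b1 is an adrenal steroid enzyme. Stellate cell markers had ratios in the direction of Folr1 and the NM_017014 probe, with 1 of 8 above 0 on each array and medians of -0.17, -0.19 and -0.30. Medians were also below 0 for blood markers (-0.21, -0.16 and -0.23 over 3 genes) and bile duct markers (-0.03, -0.04 and -0.20 over 2 genes). Endothelial, muscle and kidney markers had medians at or above 0 on every array, and macrophage and adipocyte markers had medians of mixed sign. Hepatocyte markers had medians of 0.01, -0.07 and -0.13 over 14 genes, with 7, 6 and 4 above 0, and some were far lower on some arrays. Serpina1, alpha-1 antitrypsin, had -0.71 at 1 month, but -0.24 at 3 months and -0.09 on the age array. Albumin (Alb) had -0.15 at 1 month and -1.01 at 3 months. On the age array Alb had -1.10 and Tf, transferrin, -0.99, against 0.03 and -0.29 for Tf on the strain arrays. Their part in the members' ratios was not tested, and in whole liver fewer cells of a type and less RNA per cell cannot be told apart.

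Across 12 ways of processing, Folr1 and the NM_017014 probe stayed below 0 on all 3 arrays as the headers run. The presence filters are among these ways and could not move a member, because all member spots were present in both channels. None of these ways removes a dye effect particular to a probe. Folr1 ranged from -0.76 to -0.25 at 1 month and from -0.54 to -0.07 at 3 months. The NM_017014 probe ranged from -0.26 to -0.12, from -0.27 to -0.08 and from -0.69 to -0.47 on the 3 arrays. Cd36 changed sign at 1 month with median centring, and Ephx2 in 4 alternatives at 1 month and 1 at 3 months. The single strain ratio past 1.5-fold was that of Folr1 at 1 month with median centring.

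**Figure D5:**
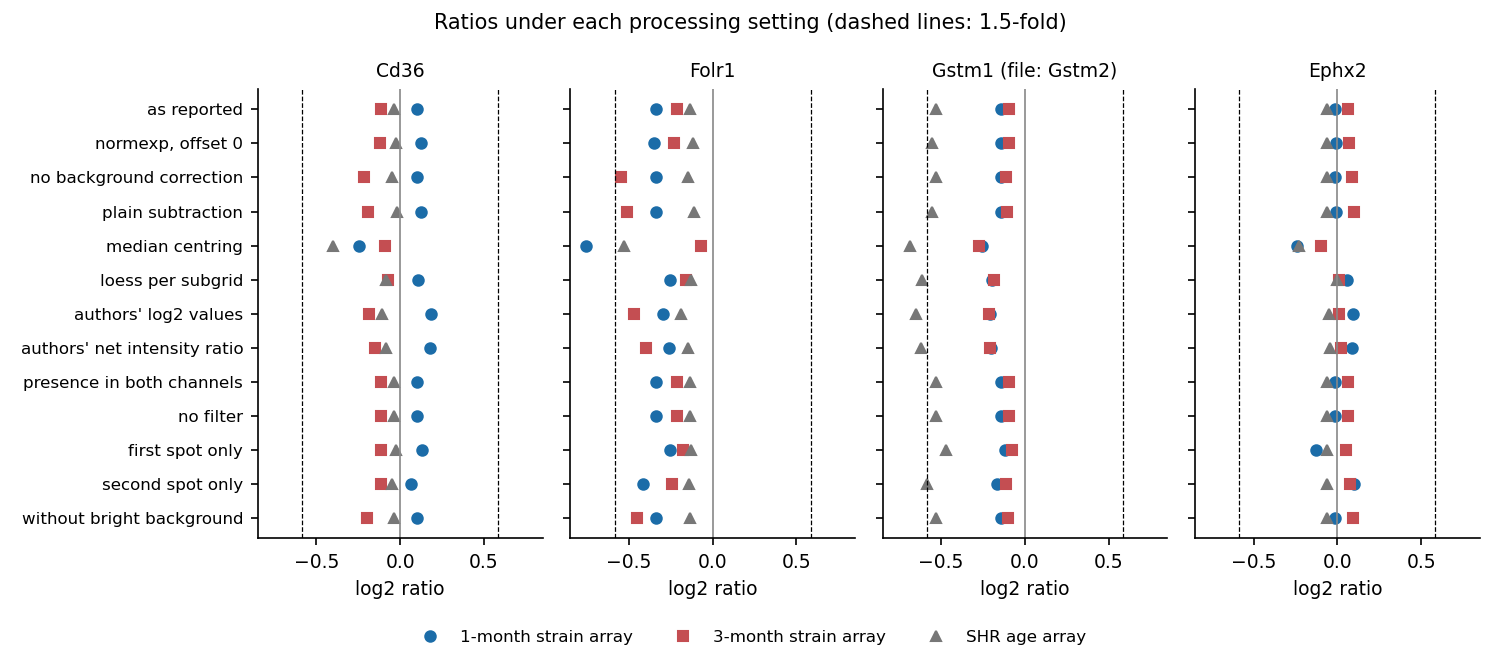
Log2 ratio of each gene (panels) on the 3 arrays (symbols) under the reported processing and 12 alternatives (rows), with dashed lines at 1.5-fold. Folr1 and Gstm1, read by the NM_017014 probe, stay left of 0 in each row, and the age ratio of the latter crosses the lower line in 4 rows.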

How the data were processed

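Per the file headers, the deposited intensity values are the mean raw foreground and local background of each spot and channel, made with quantification software that no source here names. The authors also deposited a net intensity ratio (first channel over second, after their own scaling) and a table of log2 values, with no statement of scale, centring or direction. Per the labels' protocols, 10 µg of total RNA were labelled with Alexa555 or Alexa647. The log2 values lay within 0.05 of the turned net ratio for 90.6%, 88.1% and 87.3% of gene spots. Over all gene spots with both values their correlations were only 0.52, 0.06 and 0.62, so some of the remaining spots differed widely. The log2 values had medians over all spots, empty ones included, of 0.0028, 0.0225 and 0.0202.

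Raw intensities were corrected with normexp (offset 50) and normalized by global loess (span 0.3) in limma 3.58.1, R 4.3.3. Spots above background by 2 SD in at least 1 channel were kept and the 2 spots of a probe averaged. A gene named by several probes (36 genes) was represented by its brightest. Symbols came from RefSeq, by accession for 2728 probes, current symbol for 1050 and synonym for 521. Another 156 kept the file's symbol and 1235 had none. Python 3.11.15, numpy 2.4.6, pandas 2.3.3 and matplotlib 3.10.9 did the rest. The ratios were checked on simulated data, where known changes came back smaller than they were made, so a true change at the threshold can be read as less.

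A gene was counted as apart at 1.5-fold or more. Named genes were the 4 members, the highest and lowest of each pathway list on each array, the 3 nearest genes by ratios, and probes under former names. A gene that this rule takes is not reported here. Other list genes (Slc19a1 at 1 month, Gstm3, Gstm5, Gstm7, Ephx1) and 3 hepatocyte markers were picked after their values had been seen. The members and lists were chosen with earlier results of these data known. Of 9 marker lists, those of macrophages, endothelium, bile duct, muscle, and blood had medians at 1 month of -0.11, 0.09, -0.03, 0.05 and -0.21. These were over 3, 1, 2, 4 and 3 genes.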

Additional observations from a re-analysis of the deposited data

Results flagged for a closer look

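The strain ratio of Cd36 had opposite signs at the 2 ages, 0.10 at 1 month and -0.11 at 3 months, a difference of -0.21 on the log2 scale. The pooled SD between spots of a probe, times 2, was 0.113 at 1 month and 0.0912 at 3 months. The difference between ages was not tested, since each age has 1 array. Cd36 kept opposite signs in all alternatives except median centring, where both ratios were negative.

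The strain ratio of Ephx2 also had opposite signs, -0.01 at 1 month and 0.07 at 3 months, a difference of 0.077 that was not tested. Both values lie within 2 times the pooled SD between spots, and the 1-month spots themselves fell on either side of 0.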

How the results depend on the processing

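No paired analysis was possible because each comparison has 1 array. For the same reason no array was left out, and leaving out 1 spot of each probe took its place. The members' depth is limited by signal over background, which is least for Folr1. Keeping only genes present in both channels, or applying no filter, could not move a member, because every member spot was present in both channels. The cause of the changes below was not tested, except where fewer spots or a stricter fold defines them. The correction without bright background was chosen after seeing the data.

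Without background correction Cd36 at 3 months was -0.22 (change with age -0.32) and Folr1 -0.54 (change -0.20). The genes 1.5-fold higher and lower were 50 and 249 at 3 months and 27 and 115 for the change. With plain subtraction Cd36 at 3 months was -0.19 (change -0.32) and Folr1 -0.51 (change -0.17). The counts were then 46 higher at 1 month, 103 higher and 292 lower at 3 months, 209 higher on the age array and 175 lower for the change. With a normexp offset of 0, 42 genes were higher at 1 month and 203 on the age array. Without bright background Cd36 at 3 months was -0.20 (change -0.30), Folr1 -0.45 (change -0.12), 201 genes were lower at 3 months and 22 higher for the change.

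With median centring Cd36 was -0.25 at 1 month and -0.40 on the age array, with a change of 0.16. Folr1 was -0.76, -0.070 and -0.53 on the 3 arrays, with a change of 0.69. The NM_017014 probe was -0.26, -0.27 and -0.69, and Ephx2 -0.24, -0.097 and -0.23. Higher and lower counts were 595 and 417, 434 and 132, 876 and 567, and 415 and 176 for the change. With loess per subgrid Folr1 was -0.26 and -0.16 on the strain arrays. The NM_017014 probe was -0.18 at 3 months and -0.61 on the age array. Ephx2 was 0.059, 0.0078 and -0.0034, with a change of -0.051, and 20 genes were higher at 1 month.

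In the authors' log2 values Cd36 was 0.19, -0.19 and -0.11, with a change of -0.37. Folr1 was -0.47 at 3 months and -0.19 on the age array, with a change of -0.17. The NM_017014 probe was -0.21, -0.22 and -0.65, and Ephx2 0.091 and 0.013 on the strain arrays, with a change of -0.079. Counts were 104 higher at 1 month, 156 higher and 229 lower at 3 months, 223 higher on the age array and 126 lower for the change. By the authors' net intensity ratio Cd36 was 0.18 at 1 month (change -0.32). Folr1 was -0.26 and -0.40 on the strain arrays (change -0.13), the NM_017014 probe -0.20, -0.21 and -0.62, and Ephx2 0.089 at 1 month (change -0.067). Counts were 80 higher at 1 month, 122 and 213 at 3 months, 217 higher on the age array, and 49 and 125 for the change.

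With the first spot only, Folr1 at 1 month was -0.25, the NM_017014 probe on the age array -0.47 and Ephx2 at 1 month -0.12 (change 0.18). With the second spot only they were -0.42, -0.58 and 0.10 (change -0.026). With the age array's sign turned its ratios were 0.039 for Cd36, 0.13 for Folr1, 0.53 for the NM_017014 probe and 0.064 for Ephx2. Then 305 genes were higher and 117 lower. At 2-fold, 0 and 22 genes were higher and lower at 1 month, 2 and 4 at 3 months, 3 and 52 on the age array, and 11 and 3 for the change.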
